A study of Xenopus laevis x Xenopus muelleri with 8 samples.

Results

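The somatic gonad factor genes lhx9.L and sox9.S were followed in the ovary of adult hybrid frogs. They were taken as all probe sets of the deposited values whose single gene symbol in the platform annotation was lhx9.L or sox9.S. This gave 1 probe set for each gene, 2 of the 5790 genes named among those values. The probe sets were Xl.21559.1.A1_at for lhx9.L and Xl.1690.1.S1_at for sox9.S. The endings .L and .S mark the homeologs, the paired gene copies that Xenopus laevis carries from its ancient genome duplication. The homeologs lhx9.S and sox9.L had 0 single-symbol probe sets in the deposited values, and no probe set there shared by several genes listed either gene. Probe sets outside the deposited values were not searched.

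All animals were hybrids of an X. laevis mother (Cape of South Africa) and an X. muelleri father (Swaziland), reared from eggs to adulthood under 1 photoperiod. Total RNA of the ovary was hybridised to Affymetrix X. laevis arrays, with 4 arrays of sex-reversed animals and 4 of normal females, each labelled a biological replicate. The labels do not say by what means sex was reversed. The hybrid background was shared by both groups, and no parental species was on these arrays. The source names of all 8 arrays said testis where every other label said ovary, and in sex-reversed replicate 4 that field read normal instead of sex-reversed; samples were grouped by title. The egg envelope gene zp2.L averaged percentile 98.0 of the array in sex-reversed and percentile 98.1 in normal ovary, so a defining oocyte transcript was among the highest values in both groups. Values are log2 expression after RMA, a method that brings arrays to a common distribution, and the number of arrays limits the precision.

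The vertebrate gonad starts as a bipotential ridge of somatic cells that the germ cells enter. LHX9 is a LIM homeobox transcription factor of that ridge, and in mice its loss stops the gonad from forming. SOX9 is a transcription factor with an HMG box that drives Sertoli cell differentiation in the mammalian testis, and that also acts in cartilage.

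lhx9.L was higher in sex-reversed ovary on every array. Its log2 values were 4.91, 5.22, 4.92 and 5.38 in sex-reversed replicates 1 to 4, against 4.29, 4.10, 3.87 and 4.33 in normal replicates 1 to 4. The groups did not overlap, and the lowest sex-reversed array lay 0.58 above the highest normal one. lhx9.L averaged 5.11 ± 0.23 in sex-reversed and 4.15 ± 0.21 in normal ovary (SD, n = 4 each), a log2 difference of 0.96 ± 0.17 (SE, 95% interval 0.57 to 1.35), or 1.95-fold. These values helped to choose the gene, so they are a description and carry no test here. Of all probe sets 4.06% had groups that did not overlap, 2.1% with sex-reversed ovary higher and 1.96% with it lower, and the difference of lhx9.L was the 102nd highest of 11485.

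sox9.S had the opposite order of group means, but its groups overlapped. Its log2 values were 4.65, 4.75, 5.09 and 4.57 in sex-reversed replicates 1 to 4, against 5.97, 4.52, 5.39 and 6.04 in normal replicates 1 to 4. Of the normal arrays 3 lay above every sex-reversed array, while normal replicate 2 had the lowest value of all 8. sox9.S averaged 4.76 ± 0.23 in sex-reversed and 5.48 ± 0.70 in normal ovary (SD, n = 4 each), a log2 difference of −0.71 ± 0.33 (SE, 95% interval −1.45 to 0.03), or 0.610-fold. Which array was left out moved the difference, to −0.55 ± 0.34 without normal replicate 1, −1.03 ± 0.22 without normal replicate 2 and −0.53 ± 0.33 without normal replicate 4 (SE). No p-value is given for either gene, and no probe set of the whole table passed limma's adjusted p of 0.05 (0 of 11485, 0%), where 733 had an unadjusted p under 0.05.

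**Figure D1:**
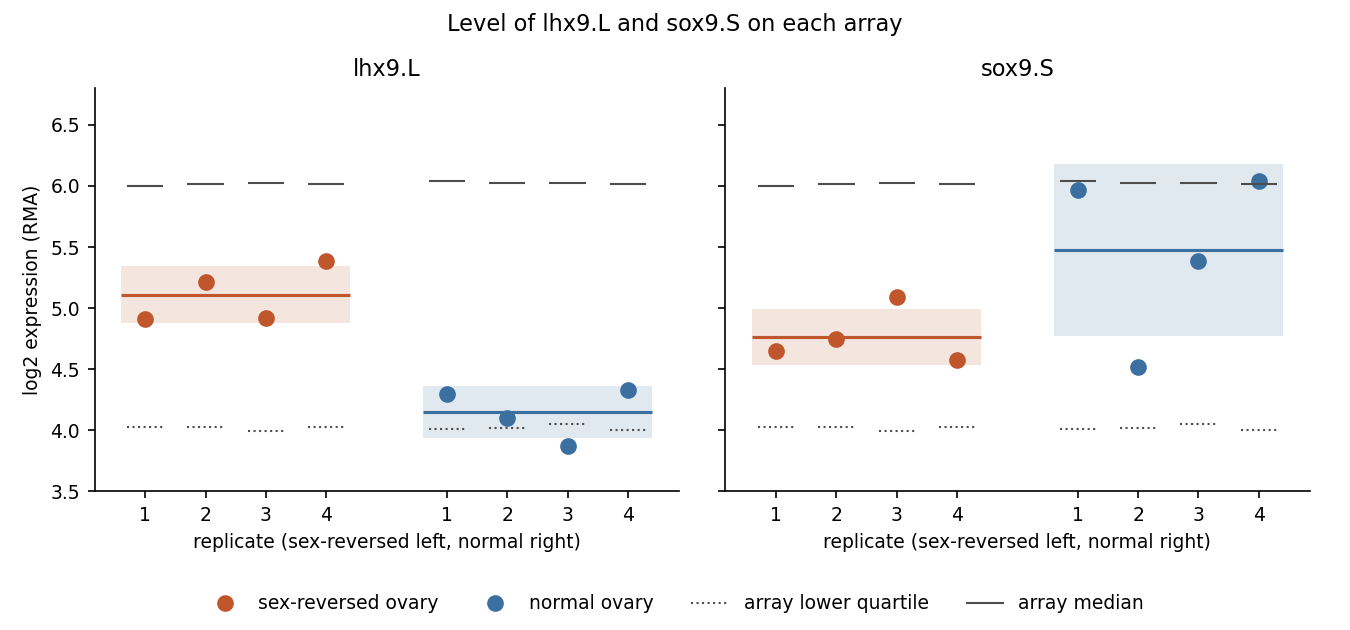
Log2 expression of lhx9.L (left panel) and sox9.S (right panel) on each array, with sex-reversed replicates left of normal ones; coloured lines are group means, bands are 1 SD either side (n = 4), and short grey lines are each array's lower quartile and median. The lhx9.L points of the groups do not overlap, and for sox9.S normal replicate 2, at 4.52, lies below all sex-reversed points.

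The genes also differed in how much their arrays varied. The SD of lhx9.L was 0.23 in sex-reversed and 0.21 in normal ovary, and 27.6% of all probe sets had a smaller pooled SD. For sox9.S the arrays were close together in sex-reversed ovary (SD 0.23) and 3.07 times as spread in normal ovary (SD 0.70). An SD of so few arrays is imprecise, and the ratio was not tested. The median SD over all probe sets was 0.27 in sex-reversed and 0.29 in normal ovary, so that only the normal arrays of sox9.S stood above it, and 89.9% of probe sets had a smaller SD in normal ovary than sox9.S. The spread of the normal arrays came from both sides, with normal replicates 1 and 4 near 6 and normal replicate 2 near the sex-reversed values. Normal replicates 1 and 4 also fall together in the sets of arrays described below.

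Both genes were in the lower part of each array's distribution, below its median in 15 of the 16 values. lhx9.L ranked at percentiles 36.4 to 42.0 of the sex-reversed arrays and at percentiles 22.5 to 29.4 of the normal arrays. Normal ovary thus held lhx9.L around the array's lower quartile, which lay between 3.99 and 4.05. Normal replicate 3 was 0.18 below its quartile, normal replicate 2 was 0.08 above it, and every sex-reversed array was at least 0.89 above. sox9.S ranked at percentiles 31.9 to 38.6 of the sex-reversed arrays and at percentiles 31.4 to 50.4 of the normal arrays. The highest of these, normal replicate 4, was 0.03 above its array's median. Percentiles compare a probe set with the array, and the binding strength of probes differs, so they do not rank lhx9.L against sox9.S. Detection above background was not tested.

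The 8 arrays fell into 2 sets of 4 that crossed the groups, as found by clustering on the whole table. Set A held sex-reversed replicates 3 and 4 and normal replicates 1 and 4, and set B held sex-reversed replicates 1 and 2 and normal replicates 2 and 3. Correlations across probe sets ran from 0.954 to 0.972 between arrays of the same set and from 0.943 to 0.953 between arrays of different sets, and the labels give no reason for the sets. lhx9.L averaged 5.15 in sex-reversed and 4.31 in normal ovary within set A, a difference of 0.84, and 5.07 and 3.98 within set B, a difference of 1.08 (n = 2 each). Since the lhx9.L groups did not overlap over all 8 arrays, they could not overlap within a set either, so that is no separate result. sox9.S averaged 4.83 in sex-reversed and 6.0 in normal ovary within set A, a difference of −1.17, but 4.70 and 4.95 within set B, a difference of −0.25 (n = 2 each). In set B normal replicates 2 and 3, at 4.52 and 5.39, lay on either side of the sex-reversed values of 4.65 and 4.75. The difference of these differences was not tested.

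**Figure D2:**
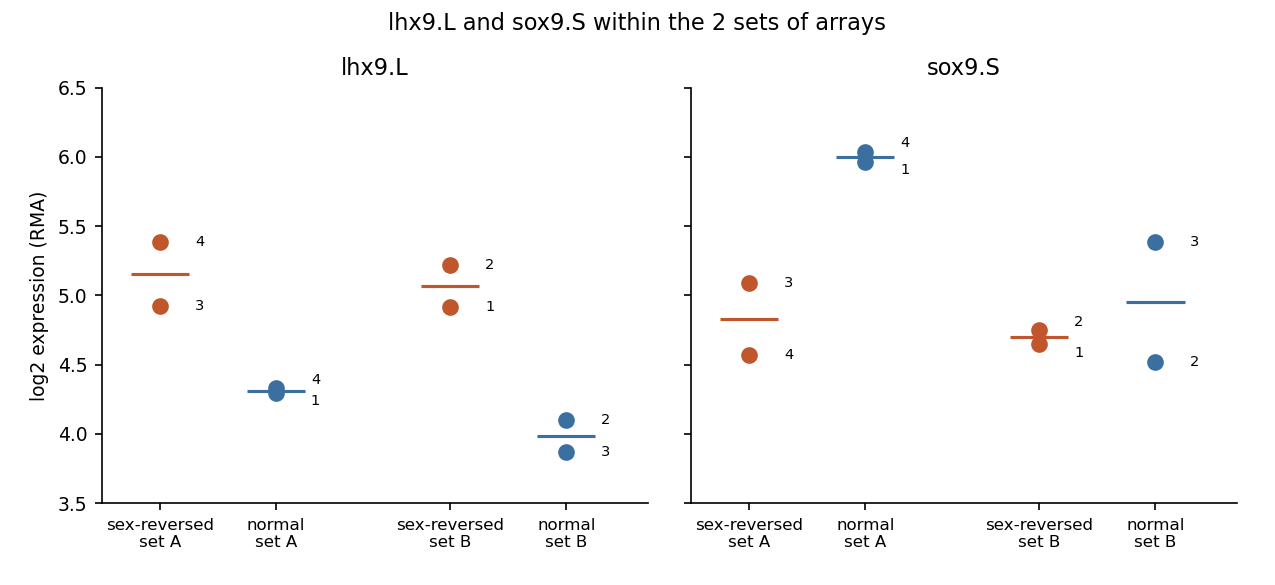
Log2 expression of lhx9.L and sox9.S by array set, sex-reversed left of normal within each set; points are arrays with the replicate number beside them and lines are means of 2 arrays. lhx9.L differs by 0.84 in set A and 1.08 in set B, and sox9.S by −1.17 in set A and −0.25 in set B.

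The label conflict of sex-reversed replicate 4 touches lhx9.L directly, since this array had its highest value, 5.38. Counted as normal, as its source name says, it reduced the lhx9.L difference to 0.62 ± 0.32 (SE), and the groups then overlapped. The same move changed the sox9.S difference to −0.47 ± 0.39 (SE). With the array left out, the differences were 0.87 ± 0.17 for lhx9.L and −0.65 ± 0.37 for sox9.S (SE).

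LIM homeobox proteins share paired LIM zinc fingers beside their homeodomain, and 5 other family members were measured. None passed limma's adjusted threshold. The retinal and forebrain factor gene lhx2.L, the closest relative of lhx9 in the list, differed by 0.34 ± 0.26 (log2, SE; 95% interval −0.24 to 0.93), and its relative lhx2-b by −0.04 ± 0.29. Without sex-reversed replicate 3 the lhx2.L difference was 0.12. A second lhx2.L probe set, below the lower quartile of every array, differed by 0.17 ± 0.14. The kidney and head organiser gene lhx1.L differed by 0.38 ± 0.27 (0.21 without sex-reversed replicate 2), and the pituitary and motor neuron gene lhx3.L by −0.26 ± 0.15. lhx3.L was at 4.42 ± 0.05 in sex-reversed and 4.69 ± 0.23 in normal ovary (SD, n = 4 each), and its groups did not overlap, with sex-reversed ovary lower. They overlapped when arrays were centred on their medians, or with sex-reversed replicate 4 counted as normal. lhx1.L and lhx2.L were dim, averaging percentiles 20.9 and 21.2 of the array in sex-reversed and 14.9 and 15.3 in normal ovary. lhx5.S, an interneuron and forebrain gene, was at 7.85 in sex-reversed replicate 2 and at 8.25 in normal replicate 3, and between 3.41 and 4.49 on the other 6 arrays. With so few genes the family median of 0.28, without lhx9.L, turned to −0.08 without normal replicate 4 to −0.03 without sex-reversed replicate 2 and to −0.04 with a filter on low values. The median difference over all probe sets was 0.00.

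LIM homeobox proteins act with the LIM domain binding protein LDB1, and single-stranded DNA binding proteins stabilise that complex. The 5 measured genes of these cofactors had a median difference of 0.11, with 4 higher, 1 lower and 0 past the adjusted threshold. ldb1.S averaged 8.16 ± 0.20 in sex-reversed and 7.88 ± 0.23 in normal ovary (SD, n = 4 each), a difference of 0.28 ± 0.17 (SE). ssbp2.S differed by 0.11 ± 0.16 and ssbp4.S by −0.22 ± 0.35. These intervals include 0, and that of ldb1.S ran from −0.10 to 0.66.

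Of 12 other SOX genes 8 were higher and 4 lower in sex-reversed ovary, with a median difference of 0.04, and none passed the adjusted threshold. sox9.S, chosen with earlier results of these data known, had the lowest difference of the 13. At an unadjusted p of 0.05, which 6.38% of all probe sets reached (3.21% higher and 3.17% lower), sox13.S was the 1 SOX gene among the 12. sox13.S, a SOX gene of the same group as the SOX9 partners SOX5 and SOX6, was at 10.09, 10.11, 10.15 and 10.00 in sex-reversed replicates 1 to 4, against 9.20, 9.68, 9.60 and 9.87 in normal replicates 1 to 4. The groups did not overlap, and the difference was 0.50 ± 0.16 (log2, SE). The endothelial and endoderm factor gene sox7.L differed by 0.89 ± 0.61 and sox4.L by 0.30 ± 0.20. Without normal replicate 3 the sox7.L difference was 0.46, without sex-reversed replicate 2 it was 0.56 and without normal replicate 2 it was 1.4. That of sox4.L was 0.19 without sex-reversed replicate 4, and sox4.L was below the lower quartile of every array. The SOX9 relative sox10.L, a neural crest gene, was below the lower quartile of every array and differed by 0.04 ± 0.15. The maternal gene sox3.S, made in the oocyte, was at 9.68 ± 0.01 in sex-reversed and 9.66 ± 0.21 in normal ovary (SD, n = 4 each), and its homeolog sox3.L differed by 0.46 ± 0.63 (SE).

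**Figure D3:**
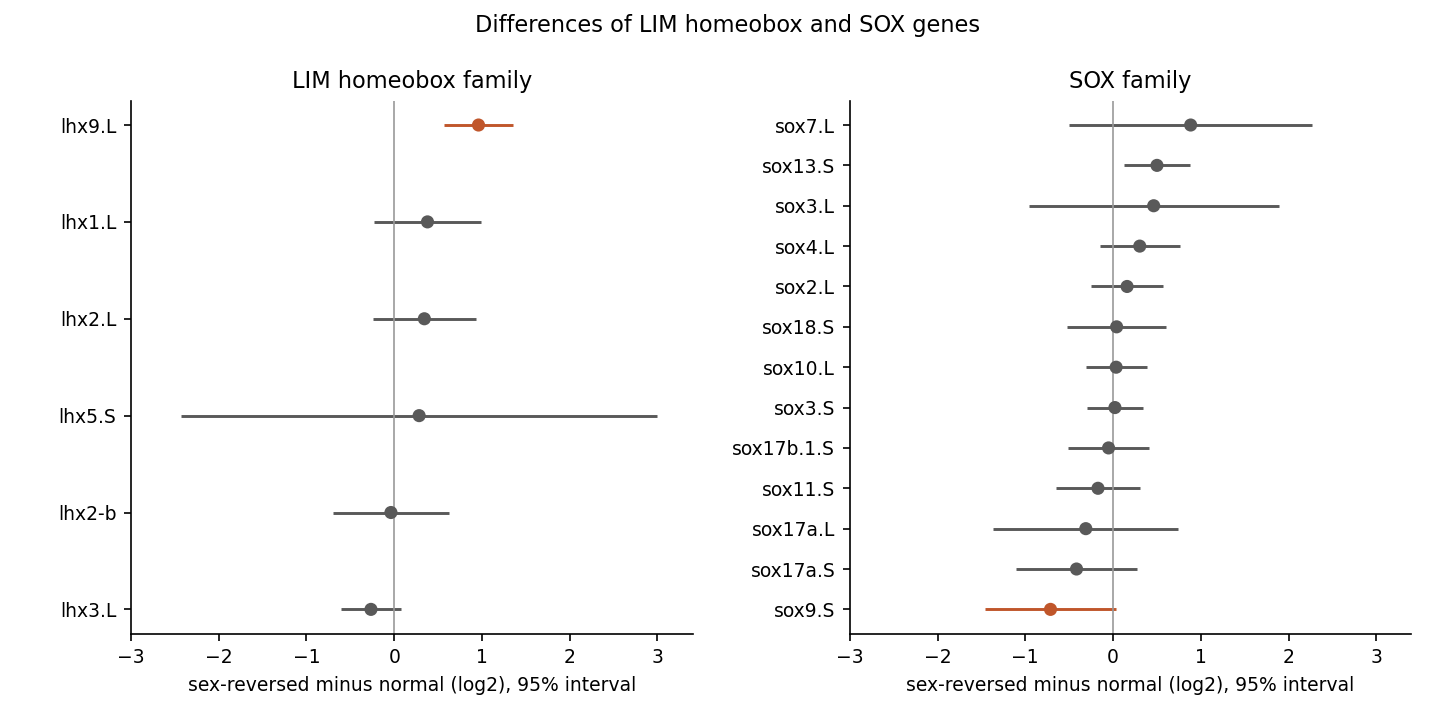
Sex-reversed minus normal difference (log2) with its 95% interval from limma for the measured LIM homeobox genes (left panel) and SOX genes (right panel), 1 probe set per gene, with lhx9.L and sox9.S in colour. lhx9.L lies at 0.96 and sox9.S at −0.71, at the high end of one family and the low end of the other, and the widest interval is that of lhx5.S. Both genes were chosen with earlier results of these data known, which favours such positions.

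The other genes of gonad formation gave no call. Of 13 measured factors of the bipotential gonad besides lhx9.L, 8 were higher, 5 lower and 0 passed, with a median difference of 0.04. gadd45g.L, whose mouse counterpart acts upstream of the testis switch, differed by 0.43 ± 0.24 (log2, SE). It was dim, averaging 3.59 in sex-reversed and 3.16 in normal ovary. Its brighter homeolog gadd45g.S, at 6.39 and 6.66, differed by −0.27 ± 0.40. The Polycomb gene cbx2.L differed by −0.45 ± 0.36 and by −0.08 without sex-reversed replicate 1, which had its lowest value, 4.60. The cardiac and gonad factor gene gata4.S differed by 0.04 ± 0.21 and the urogenital homeobox gene emx2.L by 0.01 ± 0.34. gata4.S was below the lower quartile of every array. Of 22 gene names listed for reporting in any case, not all of them gonad genes, 13 had no single-symbol probe set in the deposited values. These include wt1, nr5a1, dmrt1, foxl2, amh and cyp19a1.

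On the testis side, all 9 measured genes besides sox9.S had group means higher in sex-reversed ovary, by 0.0003 to 0.31 (log2), and 0 passed. The count rests on differences near 0: it was 5 to 8 of 9 when each array was left out in turn, and 5 both without sex-reversed replicate 4 and with that array counted as normal. Of the 9 genes 4 (dhh.L, dhh.S, kitlg.L and sox10.L) were below the lower quartile of every array. The median was 0.07, against 0.00 over all probe sets, of which 50.7% were higher. hhip.L, a Hedgehog binding protein gene, differed by 0.31 ± 0.21 (SE), the growth factor gene gdnf.L by 0.22 ± 0.15 and the prostaglandin D synthase gene ptgds-b by 0.13 ± 0.18. All 3 intervals include 0. A second hhip.L probe set differed by −0.09 ± 0.20, and the mean of both by 0.11 ± 0.18. For fgfr2.L the brighter probe set differed by 0.07 ± 0.21 and a second one by −0.06 ± 0.21.

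On the ovary side, 5 of 12 measured genes were higher, 7 lower and 0 passed, with a median of −0.06. At limma's unadjusted p of 0.05 there were 2 higher and 1 lower, against 3.21% and 3.17% of all probe sets. The Wnt receptor gene fzd1.L differed by 0.59 ± 0.14 (log2, SE), the Iroquois gene irx3.L by 0.44 ± 0.18 and the growth factor gene bmp2.S by −0.48 ± 0.18. The groups of fzd1.L and bmp2.S did not overlap, as was so for 4.06% of all probe sets, and bmp2.S was below the lower quartile of every array. With sex-reversed replicate 4 counted as normal both overlapped, at differences of 0.46 and −0.45. The activin antagonist gene fst.L differed by −0.27 ± 0.23, and the estrogen receptor genes esr1.L and esr1.S by 0.00 ± 0.22 and 0.04 ± 0.15. Both esr1 genes were below the lower quartile of every array. Of 5 steroid producing cell genes 3 were higher, 2 lower and 0 passed. srd5a1.S differed by −0.65 ± 0.27, fdxr.L by −0.25 ± 0.20 and fdx1.L by 0.17 ± 0.21. The steroid enzyme gene cyp17a1.L differed by 0.06 ± 1.31, with arrays far apart in both groups. It was at 5.23 in sex-reversed replicate 3 and 5.68 in normal replicate 1, and between 9.09 and 10.42 on the other arrays. A second cyp17a1.L probe set was also lowest on those arrays, at 6.21 and 6.25.

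SOX9 switches on collagen genes in cartilage, and 7 genes of this list were measured. Of these 5 were below the lower quartile of every array, 4 were higher, 3 lower and 0 passed, with a median of 0.00. col9a2.L differed by −0.57 ± 0.23 (log2, SE), bmp4.S by 0.37 ± 0.21, col9a1.L by −0.18 ± 0.15 and col2a1.S, the cartilage collagen gene, by 0.24 ± 0.21. All 4 were among those dim probe sets. The brighter genes of the list were col9a1-b, a further collagen gene, which differed by −0.27 ± 0.35, and ptch1.S, which differed by 0.00 ± 0.16.

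**Figure D4:**
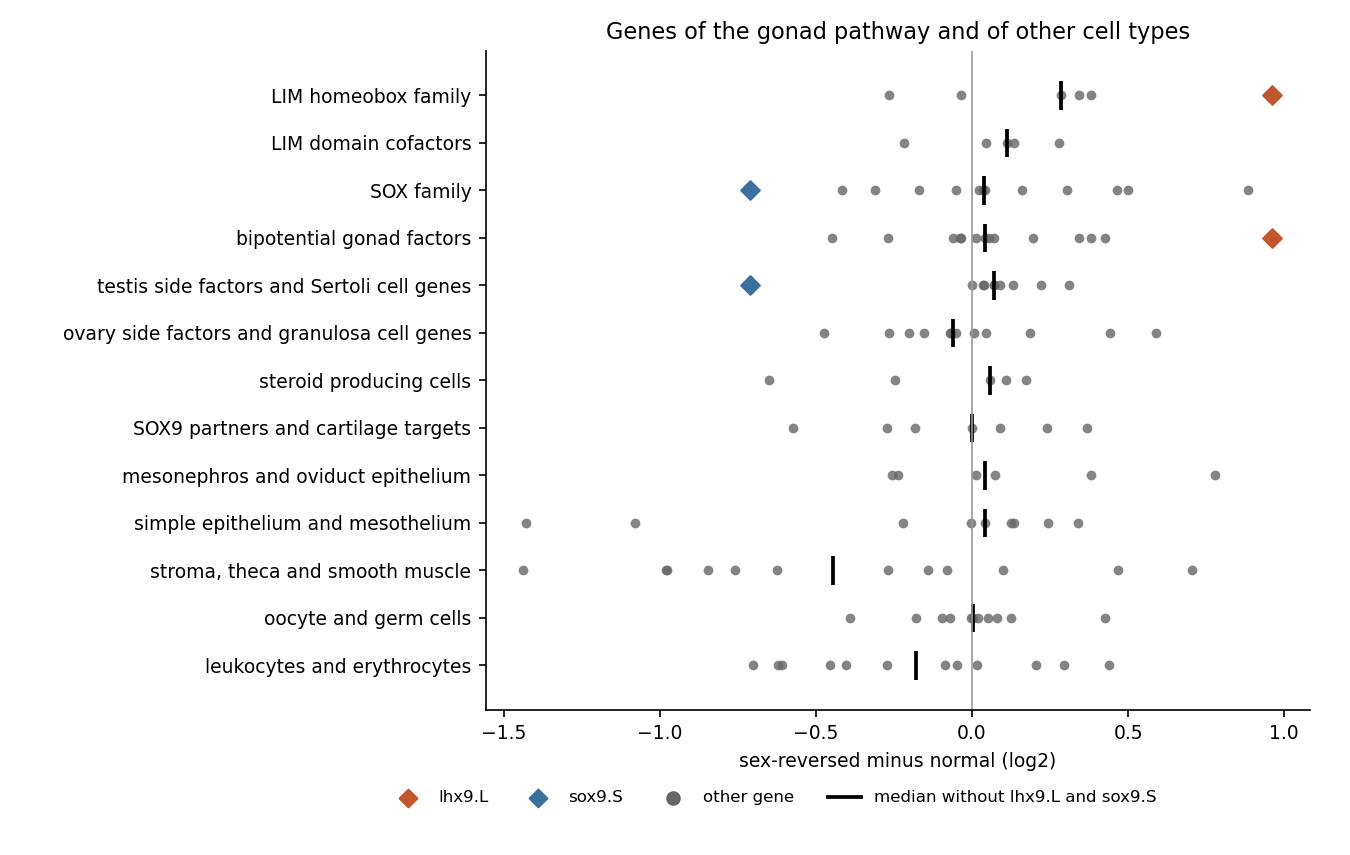
Sex-reversed minus normal difference (log2) of each measured gene in the 13 lists, 1 point per gene, with lhx9.L and sox9.S as diamonds and the median of the other genes as a black bar. lhx9.L, which its values in these data helped to choose, lies outside the range of the other LIM homeobox and bipotential gonad genes. The testis side genes other than sox9.S lie between 0.0003 and 0.31.

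In tissue RNA, fewer cells of a type and less RNA per cell cannot be told apart, so markers of the cell types an ovary sample may hold are given beside the 2 genes. Oocyte and germ cell genes, 6 of 11 higher, had a mean of 9.19 to 9.50 on the sex-reversed and 9.20 to 9.42 on the normal arrays; zar2.S differed by 0.43 ± 0.21 (log2, SE), zar1.S by −0.39 ± 0.46 and ddx4.L by −0.18 ± 0.19. Stroma, theca and smooth muscle genes, 9 of 12 lower, had a mean of 5.81 to 6.32 on the sex-reversed and 6.20 to 6.85 on the normal arrays, which overlapped. On normal replicates 1 to 4 this mean was 6.20, 6.34, 6.85 and 6.46, where sox9.S was at 5.97, 4.52, 5.39 and 6.04. The median difference of these genes, −0.45, was the furthest from 0 of the 13 lists. At an unadjusted p of 0.05, 5 of the 12 were lower (col1a1.S, col3a1.S, col6a1.L, tagln.L and vim.S) and 1 higher (pdgfra.L), against 3.17% and 3.21% of all probe sets. In that list col3a1.S, a fibrillar collagen gene, differed by −1.44 ± 0.48, vim.S by −0.84 ± 0.34 and pdgfra.L by 0.70 ± 0.27. A second col3a1.S probe set differed by −0.08 ± 0.40 and a second pdgfra.L probe set by −0.12 ± 0.25, so the probe sets of these 2 genes disagreed in size or sign.

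Simple epithelium and mesothelium genes, 5 of 9 higher, had a mean of 6.34 to 6.88 on the sex-reversed and 6.44 to 7.07 on the normal arrays. The keratin krt8.1.S differed by −1.43 ± 0.26 and krt7.L by −1.08 ± 0.24 (SE), both without overlap (krt8.1.S overlapped with sex-reversed replicate 4 counted as normal), and the cadherin gene cdh1.S by 0.34 ± 0.17. On the sex-reversed arrays krt7.L was at 3.07 to 3.54, below the lower quartile of each. cdh1.S was below the lower quartile of every array. krt8.1.S was at 7.02 in normal replicate 2, its highest value and the array where sox9.S was lowest. krt7.L went the other way, with its lowest normal value, 4.09, on that array. Mesonephros and oviduct genes, 4 of 6 higher, had a mean of 4.15 to 4.50 on the sex-reversed and 4.02 to 4.37 on the normal arrays, with atp6v1b1.L at 0.78 ± 0.33 and aqp3.L at −0.26 ± 0.26. Leukocyte and erythrocyte genes, 8 of 12 lower, had a mean of 4.59 to 4.93 on the sex-reversed and 4.68 to 5.18 on the normal arrays, with lcp1.S at −0.45 ± 0.16, hbg2.L at −0.40 ± 0.18 and ptprc.L at 0.29 ± 0.15. ptprc.L was below the lower quartile of every array, and lcp1.S was below that of every sex-reversed array. None of these marker genes passed the adjusted threshold, and their part in the values of lhx9.L and sox9.S was not tested. Over the 13 lists, 110 other genes were measured, of which 16 (14.5%) had an unadjusted p under 0.05 and 6 (5.45%) had groups that did not overlap, against 6.38% and 4.06% of all probe sets; the lists were drawn up with earlier results of these data known.

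The genes whose pattern was most like lhx9.L over the 8 arrays were clp1.L (Pearson r = 0.944), stambp.S (0.940), tll1.S (0.924), clic4.S (0.923) and ddx24.L (0.917). These were the 5 highest of all named genes, as a description of 8 arrays that share 1 normalization. clp1.L, an RNA kinase gene of transcript processing, was at 7.18, 7.19, 7.17 and 7.28 in sex-reversed replicates 1 to 4, against 6.84, 6.82, 6.90 and 6.95 in normal replicates 1 to 4. It shared the order of the groups with lhx9.L at a smaller difference of 0.33. stambp.S, a deubiquitinase gene, differed by 0.61, tll1.S, a tolloid-like protease gene, by 0.47, clic4.S by 0.57 and ddx24.L by 0.52. The groups of all but ddx24.L did not overlap. Choice by likeness to lhx9.L, whose groups did not overlap, favours such genes, so this is no separate result.

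The genes most like sox9.S were sp3.S (r = 0.953), src.S (0.952), cpa1.S (0.947), rbm8a.S (0.939) and camkk1.S (0.937). sp3.S, an Sp family transcription factor gene, was at 5.60, 5.62, 6.24 and 5.18 in sex-reversed replicates 1 to 4, against 7.03, 5.66, 6.39 and 6.76 in normal replicates 1 to 4. As with sox9.S, normal replicates 1 and 4 were highest, which choice by likeness favours. These are the normal arrays of set A, and the part of the array set in this pattern was not tested. Normal replicate 2 lay among the sex-reversed arrays in sp3.S, whereas it was the lowest of all in sox9.S. cpa1.S, a carboxypeptidase gene, was at 5.57 and 5.74 in normal replicates 1 and 4, and between 2.87 and 3.54 on the other 6 arrays. The groups of all 5 genes overlapped.

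**Figure D5:**
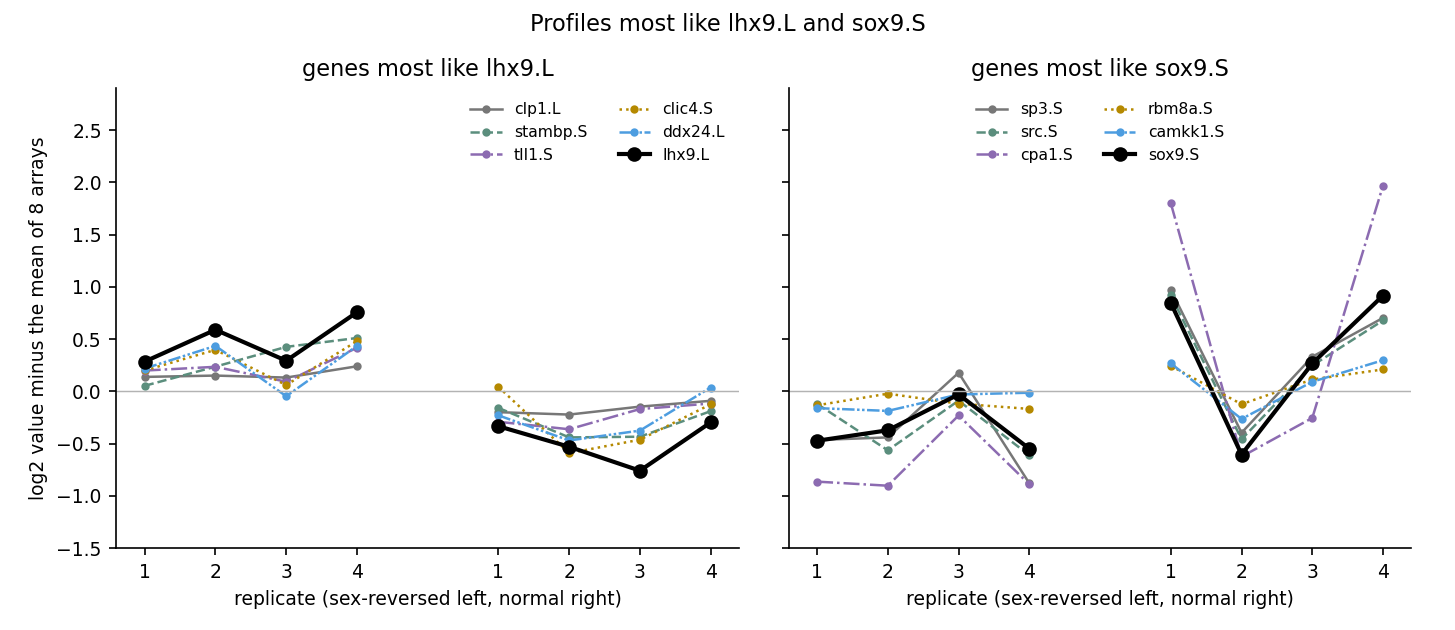
Log2 value minus the mean of 8 arrays for lhx9.L and the 5 genes most like it (left panel) and for sox9.S and the 5 genes most like it (right panel), sex-reversed replicates left of normal ones; lines only join the points of 1 gene, since replicates have no order. The left profiles separate the groups except for ddx24.L, and in the right ones normal replicates 1 and 4 stand highest, with cpa1.S reaching the largest deviation. Choice by likeness favours both features, and normal replicates 1 and 4 are the normal arrays of set A.

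When each group's mean was removed first, other genes came out as most alike. For lhx9.L these were prdx1.S (r = 0.957), plpbp.L (0.953), acin1.S (0.947), ppp1r13l.L (0.944) and fscn1.L (0.941), which differed between groups by −0.54 to 0.23. For sox9.S they were cep120.L (r = 0.987), cdo1.L (0.973), tmem185a.L (0.960), enc1.L (0.956) and LOC733151 (0.944), which differed between groups by −0.01 to 0.45. None of these 10 genes was among the 10 found on the values themselves. In cep120.L normal replicate 2 was the lowest of the 8 arrays, at 7.94, as it was in sox9.S, a likeness for which the gene was chosen.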

How the data were processed

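Expression was measured on 8 arrays, 4 of sex-reversed and 4 of normal ovary, grouped by title. The authors deposited log2 values summarised with RMA, per the submitters' processing notes, which name no version; base 2 was read from the method and the range. The annotation gave a single symbol to 6798 of 11485 probe sets, several to 110 and none to 4577. The 2 genes and all lists were chosen with earlier results of these data known.

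All 8 arrays entered 1 linear model per probe set (lmFit and eBayes of limma 3.58.1, in R 4.3.3), two-sided, with no filter or covariate and Benjamini-Hochberg adjustment over the whole table at 0.05. The labels do not say how the animals were related, and p-values reflect only the spread of these samples. Where a list gene had several probe sets, the brightest on average was used. Named were, per list, members that passed or else the 3 of smallest unadjusted p, a fixed set of gonad genes, and the 5 genes of highest Pearson r with each of the 2 genes, on values and on deviations from group means. lhx5.S, lhx2-b, gadd45g.S, cyp17a1.L, col9a1-b, ptch1.S and fgfr2.L were named after their values were seen. Figures used Python 3.11.15 and matplotlib 3.10.9. The code was tested on simulated data. Other settings were a replicate block, quantile normalization, median centring, a trended robust prior, array weights, a filter on low values, 1 mean value per gene, sex-reversed replicate 4 moved, and each replicate left out; the array set as a block was added after seeing the data. The probes were designed on X. laevis, and how well they bind X. muelleri transcripts was not assessed. Sequences were not used here.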

Additional observations from a re-analysis of the deposited data

Results flagged for a closer look

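Within groups of 4, an array lay far from the other 3 in 10 of 136 groups of genes named by rule. For groups not selected on these values chance would give about 1 in 20, or 6.8. Most of these genes were chosen by their values on these same arrays, so 10 against 6.8 is no test. Neither lhx9.L nor sox9.S was among the 10. Other genes given in the text were not counted. Of these, lhx5.S stood at 7.85 in sex-reversed replicate 2 and at 8.25 in normal replicate 3, far above the other arrays of each group. Of the 10 cases 5 were sex-reversed replicate 3. It was low in ptgds-b, at 6.46 against 6.90 to 6.98 on the other sex-reversed arrays, and in irx3.L, at 4.97 against 5.20 to 5.23. It was high in cpa1.S, at 3.54 against 2.87 to 2.91, in cep120.L, at 9.30 against 9.07 to 9.11, and in cdo1.L, at 9.44 against 9.20 to 9.23. These last 3 were chosen for their likeness to sox9.S, which also had its highest sex-reversed value, 5.09, on this array. Among the counted genes, normal replicate 3 stood apart in 3. It was low in ldb1.S at 7.54 against 7.94 to 8.02 on the other normal arrays. It was also low in sox10.L at 2.68 against 2.96 to 2.97, and high in vim.S at 8.38 against 7.22 to 7.30. Sex-reversed replicate 2 was low in col2a1.S at 2.29 against 2.95 to 3.04, and sex-reversed replicate 1 was high in esr1.L at 3.71 against 3.13 to 3.18. sox10.L, col2a1.S and esr1.L were below the lower quartile of every array.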

How the results depend on the processing

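The lhx9.L difference stayed between 0.87 and 1.03 when each replicate was left out in turn, and that of sox9.S between −1.03 and −0.53. Under the other settings lhx9.L ranged from 0.90 to 0.97 except with sex-reversed replicate 4 moved to normal (0.62), and sox9.S from −0.75 to −0.70 except with that move (−0.47). With the replicate number as a block the differences were 0.96 ± 0.17 and −0.71 ± 0.33 (SE), and 0 probe sets passed. Same-numbered arrays deviated together in 2 of 4 pairs (correlations of −0.19, 0.24, −0.19 and 0.17), so the numbers were not taken as pairs. The signs went with the array sets, which come from the same values. Sex-reversed and normal arrays of the same set correlated at 0.10 to 0.28, and those of different sets at −0.26 to −0.06. With the array set as a block the SE were 0.16 and 0.27. Over all probe sets, leaving out a replicate gave 0 to 2 that passed (2 without sex-reversed replicate 2, and 1 each without normal replicates 1, 2 and 3) and 731 to 949 with groups that did not overlap, since 3 arrays separate from 4 more easily, against 466 over all arrays. At an unadjusted p of 0.05, 733 probe sets and 16 list genes passed. No list gene passed the adjusted threshold under any setting run, and no named list gene with a difference above its SE changed sign. Leaving out 1 array moved 15 of the 32 such genes by over 1.5 times; besides those given with the values above, bmp4.S was 0.20 and srd5a1.S −0.43 without normal replicate 2, ldb1.S 0.17 without normal replicate 3, pdgfra.L 0.45 without normal replicate 4, gadd45g.L 0.27 and fst.L −0.44 without sex-reversed replicate 1, col2a1.S 0.42, col9a1.L −0.12 and fdxr.L −0.09 without sex-reversed replicate 2, and hhip.L 0.19 and 0.47 without sex-reversed replicates 1 and 3. Block, prior and weights leave the overlap of groups as it is and were not run for that count. Signal over background was not in the values used here, which limits what can be said of genes near the lower quartile.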
